A study of Mus musculus with 27 samples.

Results

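Hepatocyte organoids (HepOrgs) kept in a minimal medium (MM) for 2 weeks were compared with HepOrgs kept in MM for 1 week, across all genes with enough counts. The comparison uses 6 of the 27 bulk RNA-seq libraries of the study that could be assigned to a condition, 3 at each time, chosen by their titles. Of 21848 mouse genes in the count table, 12989 were tested. HepOrgs are 3D structures grown in Matrigel from primary mouse hepatocytes, and the study used them as the hepatocyte partner of assembloids that rebuild the periportal region of the liver. All HepOrgs described here were wild type, came from mice of the C57BL/6 background, had been expanded in the medium HM-Wnt and were at passage 2. The MM groups were then moved to MM and collected after 7 days (1 week) or 14 days (2 weeks). MM is a basal medium with B27 and N-acetylcysteine, Wnt conditioned medium and a ROCK inhibitor. A second set of 6 libraries, HepOrgs that stayed in HM-Wnt for 1 or 2 weeks, shared the fit and served to test whether a change with time differed between the media. HM-Wnt has the same base, Wnt conditioned medium and ROCK inhibitor, and also holds gastrin, EGF, RSPO1 conditioned medium, FGF10, FGF7, nicotinamide, HGF, the GSK3 inhibitor CHIR99021 and the TGF-beta receptor inhibitor A83-01. The study used adult mice of either sex, but the age behind each library and the meaning of the replicate numbers are not given in the sources used here, so p-values measure only the spread between these libraries, which may be technical.

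Hepatocytes in the liver divide their work along the lobule. Cells near the portal vein carry out gluconeogenesis, urea synthesis and fatty acid oxidation, whereas cells near the central vein, which receive Wnt signals and less oxygen, express glycolytic enzymes, many cytochrome P450 enzymes and glutamine synthetase. The nuclear receptor PPARalpha switches on genes for fatty acid uptake and oxidation when fatty acids are plentiful, and hypoxia-inducible factors (HIFs) switch on glycolytic and angiogenic genes when oxygen is low. Hepatocytes lose much of this specialised expression in culture.

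Total counts ranged from 41178058 to 58815016 per library at 1 week and from 35069727 to 50165446 at 2 weeks. Hepatocyte identity was present in all 6 libraries. The summed level of 10 hepatocyte markers was 24856 to 61852 CPM (counts scaled to the total of the library) at 1 week and 32657 to 63286 CPM at 2 weeks, with none of the 10 at 0. Against this, 6 cholangiocyte markers summed to 48.4 to 130 CPM and 46.0 to 136 CPM, 9 mesenchyme markers to 104 to 205 CPM and 73.2 to 221 CPM, and 10 endothelial markers to 3.23 to 3.91 CPM and 1.44 to 2.40 CPM. The 10 immune markers summed to 21.0 to 61.7 CPM at 1 week and 7.16 to 763 CPM at 2 weeks. The highest value belonged to replicate 3 at 2 weeks, where Lyz2 reached 709 CPM. Of the other markers, the highest of the 6 libraries held 47.7 CPM of Cd68, 9.70 of Adgre1 and 7.93 of Csf1r. For Cd74 and Ptprc it held 3.17 and 1.51 CPM, and for Cd79a and Cd3e 0.060 and 0.029 CPM. Clec4f, a Kupffer cell marker, and Itgam were at 0 in all 6 libraries. The part of these cells in the results was not tested. Both MM libraries with replicate number 3 stood apart from the other 4 on the second principal component, which held 17.3% of the variance of the 12 HepOrg libraries (36.2 and 46.1 against −21.7 to 0.28). Log2 fold changes without both are given beside some of the results they moved, and a gene without such a value may have moved too. Leaving out both was chosen after seeing the data. In bulk libraries, fewer cells of a type and less RNA per cell cannot be told apart.

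Between 1 and 2 weeks in MM, 2 genes passed an adjusted p of 0.05 in edgeR's quasi-likelihood test with Benjamini-Hochberg adjustment, which is 0.0154% of the genes tested. Both rose. They were Aspg, which encodes an asparaginase that splits asparagine, and Acot2, which encodes a mitochondrial acyl-CoA thioesterase that releases fatty acids from coenzyme A. No gene passed in the other direction by edgeR, where 1337 genes (10.3%) had an unadjusted p under 0.05, 655 of them (5.04%) lower and 682 (5.25%) higher. DESeq2, the tool the study names, called 178 genes higher (1.37%) and 130 lower (1.0%) among 12951. All values in the rest of the text, unless another source is named, are from edgeR.

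Aspg was at 9.83, 10.0 and 10.4 CPM in replicates 1, 2 and 3 at 1 week and at 37.9, 32.3 and 25.4 CPM at 2 weeks. Here and below CPM are scaled by the TMM method, except in sums of markers and in freshly isolated hepatocytes, which are plain CPM. Every library at 2 weeks was above every library at 1 week, and the 3 libraries at 1 week were nearly alike. The rise was 3.15-fold, a log2 fold change of 1.65 (SE 0.19, edgeR adjusted p = 0.0214). Freshly isolated hepatocytes held 113 to 155 CPM in 3 libraries of another condition of the study, all titled WT although the genotype label of replicate 3 reads MDR2-het, so that both times in MM lay below them, a comparison made on the levels alone. The gene lies on chr12:112073076-112094007 of GRCm39 (plus strand) and shares exon sequence with the predicted gene Gm60072. As the library kit keeps no strand, reads from the overlap could not be told apart.

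Acot2 was at 3.96, 2.69 and 2.53 CPM at 1 week and at 10.7, 10.5 and 11.3 CPM at 2 weeks. The groups did not overlap, and the 2-week libraries differed among themselves by less than the 1-week ones. The rise was 3.49-fold (log2 fold change 1.80, SE 0.22, edgeR adjusted p = 0.0214). Without replicate 3 at both times Acot2 did not pass (log2 fold change 1.65, edgeR adjusted p = 0.097). Acot2 lies on chr12:84034428-84040647 (plus strand) next to close paralogues of the same family, so that reads could be shared among Acot1, Acot2 and Acot3. Its level was under the minimum set for the ranking of genes to name, and it is named because it is 1 of the 2 calls. In freshly isolated hepatocytes Acot2 was at 0.98, 0.26 and 0.53 CPM, below each MM library.

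The libraries with the same replicate number deviated together, and a fit with the replicate number as a block added Vnn3 to these genes, for 3 calls, all higher (0.0231% of the genes tested). Vnn3 encodes a vanin, a pantetheinase that recycles the vitamin part of coenzyme A. It was at 126, 111 and 45.6 CPM at 1 week and at 328, 299 and 220 CPM at 2 weeks. The groups did not overlap, and replicate 3 was the lowest at each time. Its log2 fold change with the block was 1.67 (edgeR adjusted p = 0.0476), against 1.58 (SE 0.37, adjusted p = 0.164) without it. With the block and only the 6 MM libraries in the fit, 165 genes were called higher (1.32% of 12519) and 58 lower (0.463%). Vnn3 lies on chr10:23727326-23746219 (plus strand).

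The promoters of the 3 genes called in these fits are printed to show the sequence around the start of each, from 250 bases before to 50 bases after it, taken from RefSeq on GRCm38.p6, a different build from that of the gene positions above. They were searched on both strands for AGGTCA, the half-site that many nuclear receptors including PPARalpha bind, and for ACGTG, the core of the element that HIFs bind. Neither string occurs in any of the 3, so no letter is in capitals.
Aspg, chr12:112106433-112106732, plus strand: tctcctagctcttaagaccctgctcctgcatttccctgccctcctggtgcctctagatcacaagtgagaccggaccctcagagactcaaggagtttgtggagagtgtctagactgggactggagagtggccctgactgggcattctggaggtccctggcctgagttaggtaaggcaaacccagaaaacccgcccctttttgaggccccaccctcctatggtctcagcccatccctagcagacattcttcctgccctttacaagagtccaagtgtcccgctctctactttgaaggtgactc
Acot2, chr12:83987611-83987910, plus strand: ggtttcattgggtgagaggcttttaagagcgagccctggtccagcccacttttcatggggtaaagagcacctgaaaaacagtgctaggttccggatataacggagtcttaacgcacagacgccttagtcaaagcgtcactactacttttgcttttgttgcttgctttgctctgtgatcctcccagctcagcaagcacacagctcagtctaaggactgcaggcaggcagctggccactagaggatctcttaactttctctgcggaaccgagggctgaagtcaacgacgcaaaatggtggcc
Vnn3, chr10:23851212-23851511, plus strand: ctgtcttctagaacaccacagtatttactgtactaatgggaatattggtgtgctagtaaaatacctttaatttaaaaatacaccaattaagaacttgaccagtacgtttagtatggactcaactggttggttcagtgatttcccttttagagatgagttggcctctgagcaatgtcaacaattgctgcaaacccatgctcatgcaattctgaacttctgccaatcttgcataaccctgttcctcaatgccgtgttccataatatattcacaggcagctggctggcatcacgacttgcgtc
AGGTCA occurs in 16.3% of all 32851 promoters of the same length, so most windows lack it, and its absence says only that these letters are not in these windows.

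**Figure D1:**
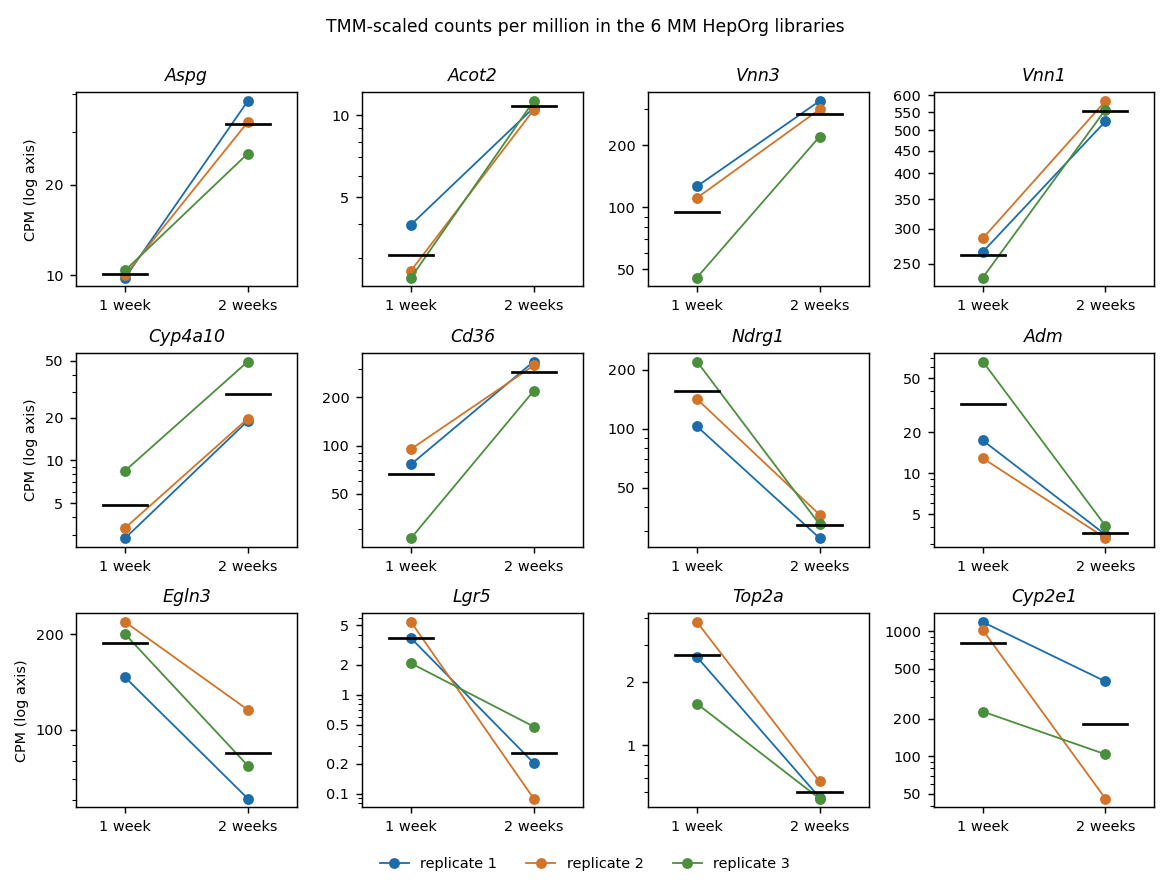
Each panel plots 1 gene, with its TMM-scaled CPM on a log axis against time in MM. Points are libraries, lines join libraries with the same replicate number, and black bars are group means (n = 3). Aspg, Acot2, Vnn3, Vnn1, Cyp4a10 and Cd36 lie higher at 2 weeks in every library, Ndrg1, Adm, Egln3, Lgr5 and Top2a lie lower in every library, and the groups overlap for Cyp2e1.

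Whole programmes were then described by gene lists, with the number of members whose 3 libraries at one time all lay above or below the 3 at the other. The lists were chosen with earlier results of these data known, so their counts are descriptions and no test. Over all genes tested, 1176 (9.05%) did not overlap and were higher at 2 weeks, and 1127 (8.68%) were lower. Over these 12989 genes the median log2 fold change was 0.0027. Among 43 lists, fatty acid oxidation and ketogenesis had the most members that were higher without overlap, and glycolysis and hypoxia genes the most that were lower. No list had a member past the threshold with or without the block, since Aspg, Acot2 and Vnn3 were in none of them.

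Members of the fatty acid oxidation list, which also holds Vnn1 and Ppara, were mostly higher at 2 weeks. Of 33 members tested, 30 had a log2 fold change above 0, with a list median of 0.47. There were 15 higher without overlap (45.5%, beside 9.05% of all genes) and none lower without overlap. The members were higher in all 3 same-numbered pairs in 24 cases, against 21.6% of all genes tested. DESeq2 called 7 of the 33 higher, beside 1.37% of all genes, and none lower. Among the 7 were Vnn1, Cyp4a10, Cyp4a32, Acot1, Acot3 and Eci2. In HM-Wnt over the same time the list median was −0.18, with 1 member higher without overlap, beside 7.24% of all genes.

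The Cyp4a genes encode omega-hydroxylases of fatty acids and are classical PPARalpha targets. Cyp4a10 was at 2.84, 3.35 and 8.47 CPM at 1 week and at 19.0, 19.7 and 49.5 CPM at 2 weeks, with replicate 3 the highest each time and no overlap between the times. The log2 fold change was 2.57 (SE 0.49, edgeR adjusted p = 0.133). Without replicate 3 at both times, a choice made after seeing the data, it was 2.62 and passed (edgeR adjusted p = 0.0387). Cyp4a32 was at 16.6, 12.6 and 14.3 CPM and then at 41.5, 50.6 and 42.8 CPM (1.63, SE 0.26, edgeR adjusted p = 0.108). Cyp4a31 had a log2 fold change of 0.82 (SE 0.30, edgeR adjusted p = 0.359), again without overlap. These genes are near-identical copies, and reads may be split among them, so the value of any 1 of them is uncertain.

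The vanin Vnn1, which lies beside Vnn3 and is a known PPARalpha target, was at 266, 285 and 233 CPM at 1 week and at 524, 583 and 557 CPM at 2 weeks. The libraries of each time were close together, and the difference was 2.12-fold (log2 fold change 1.08, SE 0.21, edgeR adjusted p = 0.133, with the block 0.053). Acot1, the cytosolic relative of Acot2, went from 1.29, 1.48 and 1.39 CPM to 7.57, 2.48 and 8.64 CPM (2.13, SE 0.41, adjusted p = 0.133). Acot3 was near 1 CPM at 2 weeks and had a log2 fold change of 2.13 (SE 0.57, adjusted p = 0.196). Cpt1a, which admits fatty acids to mitochondria, had overlapping groups and a log2 fold change of 0.51 (SE 0.31, adjusted p = 0.661).

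Ppara itself, the gene of the receptor, was not higher, and the activity of the receptor was not tested. It was at 82.8, 93.8 and 40.6 CPM at 1 week and at 68.5, 54.2 and 43.6 CPM at 2 weeks, with overlapping groups and a log2 fold change of −0.38 (SE 0.36, edgeR adjusted p = 0.834). Other genes known to respond to PPARalpha were uneven. Angptl4, an inhibitor of lipoprotein lipase, and the hormone gene Fgf21 did not overlap between times and had log2 fold changes of 0.60 and 0.65 (SE 0.28 and 0.29, adjusted p = 0.508 and 0.470). Ehhadh, the bifunctional enzyme of peroxisomal fatty acid oxidation, overlapped at 0.89 (SE 0.31, adjusted p = 0.334), and at 0.39 without replicate 3 at both times. Pdk4, a brake on pyruvate oxidation, was at 23.3, 25.8 and 39.6 CPM and then at 30.2, 17.7 and 123 CPM (0.94, SE 0.59, adjusted p = 0.677), and its direction rested on replicate 3 at 2 weeks, since without that library the log2 fold change was −0.30.

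Over the list of fatty acid and triglyceride synthesis, 4 of 25 members were higher and 2 lower without overlap, and the median was 0.01, close to that of all genes. The genes of fatty acid uptake and handling given next include Cd36, Plin2, Mlycd and Gpat3, which were chosen after their values were seen, and none passed the test by edgeR. Cd36, a fatty acid transporter, was at 76.5, 95.3 and 26.4 CPM at 1 week and at 335, 317 and 220 CPM at 2 weeks. The groups were far apart, with replicate 3 lowest in both (log2 fold change 2.14, SE 0.43, edgeR adjusted p = 0.134), and freshly isolated hepatocytes held 1.79, 15.1 and 6.93 CPM. Plin2, which coats lipid droplets, was at 1382, 1102 and 1025 CPM and then at 2200, 1931 and 2112 CPM (0.83, SE 0.17, edgeR adjusted p = 0.140). Slc27a2, a fatty acid transporter and very long chain acyl-CoA synthetase, had a log2 fold change of 0.72 without overlap (SE 0.28, adjusted p = 0.376). Mlycd, which removes the malonyl-CoA that blocks Cpt1a, was at 1.86 (SE 0.38, adjusted p = 0.139), and Gpat3, an enzyme of triglyceride synthesis, at 1.81 (SE 0.34, adjusted p = 0.133).

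**Figure D2:**
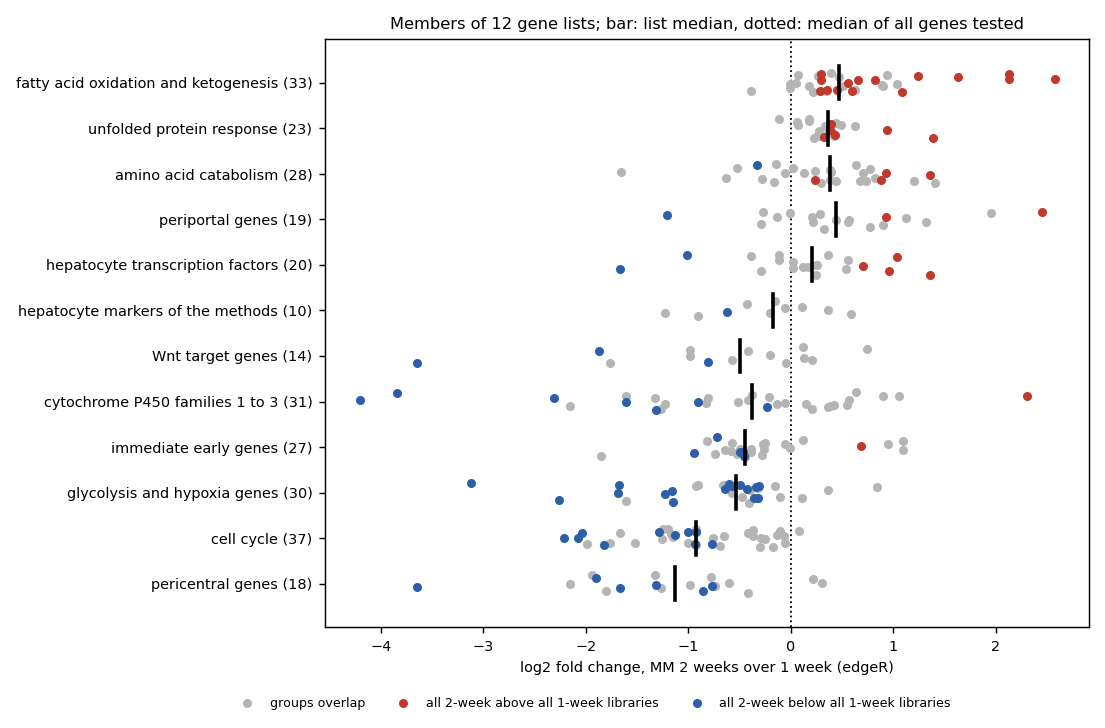
Each row is 1 of 12 gene lists with its number of members tested, and each point is a member at its log2 fold change, MM 2 weeks over 1 week. Red and blue points are members without overlap between times, bars are list medians and the dotted line is the median over every gene tested. Members of fatty acid oxidation and ketogenesis lie mostly right of 0 (median 0.47), and those of glycolysis and hypoxia, cell cycle and pericentral genes mostly left (medians −0.53, −0.93 and −1.13).

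Glycolytic and hypoxia-responsive genes were lower at 2 weeks. Of 30 members tested, 27 had a log2 fold change below 0, with a median of −0.53. There were 16 lower without overlap (53.3%, beside 8.68% of all genes) and none higher without overlap. The members were lower in all 3 pairs in 22 cases, against 19.6% of all genes. DESeq2 called 4 of the 30 lower, beside 1.0% of all genes. They were Adm, Ndrg1, Ankrd37 and Egln3. In HM-Wnt the list median was 0.14.

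Ndrg1, a stress gene that rises in low oxygen, was at 103, 142 and 220 CPM at 1 week and at 27.7, 36.4 and 32.5 CPM at 2 weeks. The 2-week libraries were close together and all lay far below the 1-week ones (log2 fold change −2.26, SE 0.44, edgeR adjusted p = 0.133, with the block 0.073). Adm, which encodes the vasodilator peptide adrenomedullin, was at 17.4, 12.9 and 66.2 CPM and then at 3.53, 3.33 and 4.11 CPM (−3.12, SE 0.61, edgeR adjusted p = 0.133). Replicate 3 was the highest library of both genes at 1 week. Without replicate 3 at both times the log2 fold change was −1.93 for Ndrg1 and −2.13 for Adm.

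Other members that sense oxygen or feed glycolysis followed the same pattern. Egln3, a HIF prolyl hydroxylase that is itself induced by HIF, was at 146, 219 and 200 CPM and then at 60.8, 116 and 77.2 CPM (log2 fold change −1.15, SE 0.27, edgeR adjusted p = 0.164). The glucose transporter gene Slc2a1 was at 78.3, 99.1 and 209 CPM and then at 35.3, 59.8 and 69.1 CPM (−1.23, SE 0.40, adjusted p = 0.289). Pfkfb3, which makes the activator of phosphofructokinase, was at −1.16 (SE 0.35, adjusted p = 0.245), Slc16a3, a lactate exporter, at −1.68 (SE 0.74, adjusted p = 0.465) and Ankrd37 at −1.69 (SE 0.45, adjusted p = 0.196), all without overlap. Slc16a3 was at −1.06 and Ankrd37 at −0.99 without replicate 3 at both times. The core enzymes moved less, with Ldha, lactate dehydrogenase, at −0.36 and Gapdh at −0.32 (SE 0.19 and 0.29, adjusted p = 0.589 and 0.828). Outside the list and chosen after their values were seen, Stc1 and the histone demethylase gene Kdm3a, both known to respond to low oxygen, were at −1.84 and −0.98 (SE 0.34 and 0.17, adjusted p = 0.133 and 0.130).

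The promoters of the hypoxia list were searched for ACGTG in the same way. At least 1 promoter held it for 19 of 28 list genes found in the RefSeq table (67.9%), and for 11 of the 15 such genes that were lower without overlap (73.3%), beside 28.9% of the genes tested and 21.8% of all genes in the table. The list was drawn from genes known to respond to HIF or to serve glycolysis, so a high share belongs to how it was made. The windows of the list members with the lowest log2 fold changes that had 1 promoter in the table and held the string are printed with it in capitals. Adm, ranked first, did not hold it.
Ankrd37, chr8:45999801-46000100, minus strand, GRCm38.p6: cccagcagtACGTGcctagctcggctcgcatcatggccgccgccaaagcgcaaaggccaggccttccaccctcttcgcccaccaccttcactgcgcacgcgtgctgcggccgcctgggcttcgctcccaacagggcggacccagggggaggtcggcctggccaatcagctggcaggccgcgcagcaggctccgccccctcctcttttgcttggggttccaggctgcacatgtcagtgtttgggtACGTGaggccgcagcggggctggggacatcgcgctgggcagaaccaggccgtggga
Slc16a3, chr11:120948817-120949116, plus strand, GRCm38.p6: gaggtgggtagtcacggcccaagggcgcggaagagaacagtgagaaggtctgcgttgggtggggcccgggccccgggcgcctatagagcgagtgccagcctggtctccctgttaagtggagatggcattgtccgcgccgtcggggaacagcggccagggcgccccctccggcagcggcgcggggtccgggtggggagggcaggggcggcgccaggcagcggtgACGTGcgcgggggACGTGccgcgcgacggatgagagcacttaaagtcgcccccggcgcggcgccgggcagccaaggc
The matches in Ankrd37 begin 241 and 6 bases before the start of transcription, and those in Slc16a3 begin 27 and 14 bases before it. AGGTCA was held by 6 of the 24 genes of the fatty acid oxidation list found in the RefSeq table (25.0%). Of the 15 members higher without overlap, 8 were in the table and 1 of these held it (12.5%). The shares were 15.5% of the genes tested and 18.1% of all genes in the table. The glycolysis and hypoxia list held it in 8 of 28 genes (28.6%). A match is a description of these letters and no evidence of binding.

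**Figure D3:**
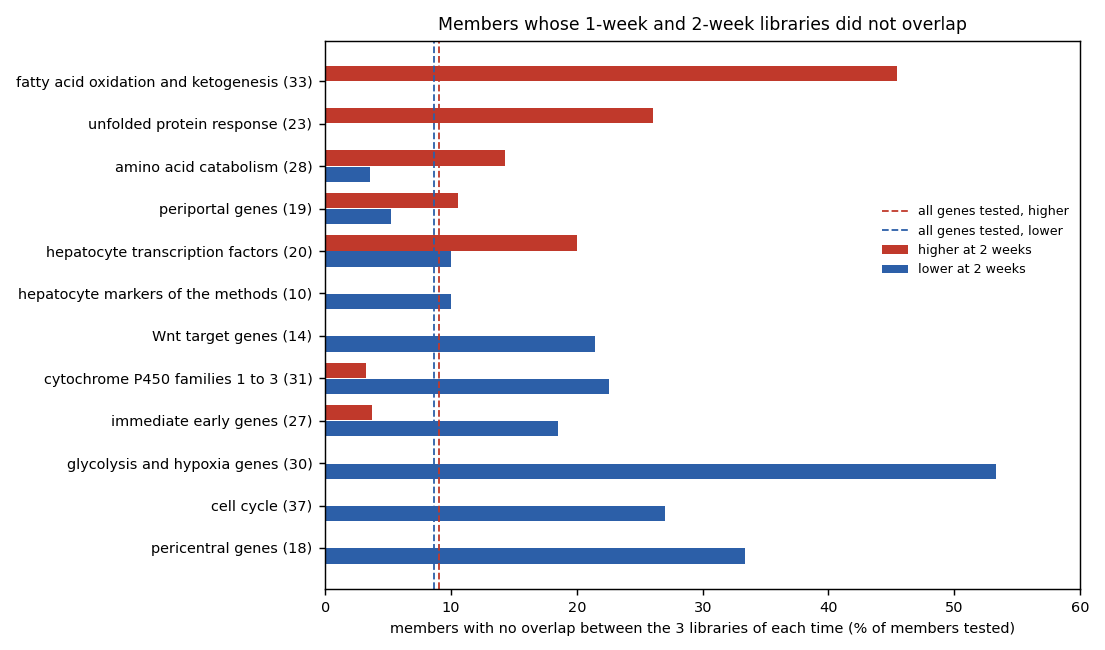
Bars give, for the same 12 lists, the percentage of members tested whose 3 libraries at 2 weeks all lay above (red) or all below (blue) the 3 at 1 week. Dashed lines mark the same shares over all genes tested, 9.05% and 8.68%. Fatty acid oxidation and ketogenesis reached 45.5% higher and glycolysis and hypoxia genes 53.3% lower.

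Pericentral genes were lower at 2 weeks. Of 18 tested, 16 had a log2 fold change below 0, and the median was −1.13. There were 6 lower without overlap (33.3%, beside 8.68% of all genes) and none higher. DESeq2 called 5 lower, beside 1.0% of all genes, including Lgr5, Tbx3, Slc1a2 and Rgn. In HM-Wnt the median was −0.35, with 14 of the 18 below 0 and 4 lower without overlap, beside 7.51% of all genes. Lgr5, the R-spondin receptor gene that marks cells next to the central vein, was at 3.71, 5.40 and 2.07 CPM at 1 week and at 0.205, 0.0895 and 0.477 CPM at 2 weeks. Every library at 2 weeks was below 1 CPM (log2 fold change −3.65, SE 0.54, edgeR adjusted p = 0.076, with the block 0.056). Without replicate 3 at both times, a choice made after seeing the data, it was −4.57 and passed (edgeR adjusted p = 0.0387). Tbx3, a Wnt-induced transcription factor of pericentral hepatocytes, was at 21.3, 26.1 and 38.6 CPM and then at 11.4, 4.74 and 10.8 CPM (−1.67, SE 0.47, edgeR adjusted p = 0.213). The glutamate transporter gene Slc1a2 was near 1 CPM at 1 week and lower without overlap at 2 weeks (−1.91, SE 0.47, adjusted p = 0.183). It was at −2.45 without replicate 3 at both times. In HM-Wnt over the same time Lgr5 was at −0.37, Tbx3 at 0.48 and Slc1a2 at −1.41.

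The pericentral enzymes were spread more widely between libraries. Cyp2e1, which oxidises ethanol, was at 1187, 1022 and 228 CPM at 1 week and at 397, 45.7 and 104 CPM at 2 weeks. Replicate 3 at 1 week was below replicate 1 at 2 weeks, so that the groups overlapped, although each pair was lower at 2 weeks (log2 fold change −2.16, SE 0.85, edgeR adjusted p = 0.391). Freshly isolated hepatocytes held 6073 to 10946 CPM. Cyp2c29 was at 1335, 1853 and 795 CPM and then at 496, 383 and 717 CPM (−1.32, SE 0.53, edgeR adjusted p = 0.406). Without replicate 3 at both times it was at −1.86. Rgn, which encodes regucalcin, overlapped at −1.80 (SE 0.48, adjusted p = 0.196), Cyp1a1 overlapped at −0.42 (SE 0.70, adjusted p = 0.938), and Slco1b2, a bile acid and drug importer, did not overlap at −0.86 (SE 0.30, adjusted p = 0.329). Glul, glutamine synthetase, went the other way from the list and was at 113, 88.7 and 184 CPM and then at 142, 135 and 201 CPM (0.31, SE 0.34, adjusted p = 0.871). Most of these genes fell in HM-Wnt too. There Cyp2e1 was at −1.20, Cyp2c29 at −1.36, Rgn at −1.20, Slco1b2 at −0.94, Glul at −0.79 and Cyp1a1 at 0.12.

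Wnt target genes had a median of −0.50 over 14 members, while the median in HM-Wnt was 0.15. There were 3 lower without overlap (21.4%, beside 8.68% of all genes) and none higher. The 3 were Lgr5, Rnf43, a ubiquitin ligase that removes Wnt receptors, and Sp5, a transcription factor induced by Wnt. Rnf43 was at 17.1, 15.3 and 15.7 CPM at 1 week and at 9.85, 6.82 and 10.8 CPM at 2 weeks (log2 fold change −0.81, SE 0.25, edgeR adjusted p = 0.266). Sp5 was near 1 CPM at 1 week and under 0.5 CPM at 2 weeks (−1.88, SE 0.53, adjusted p = 0.213, and −2.45 without replicate 3 at both times). Axin2, the usual reporter of Wnt activity, was under 1 CPM in every library with overlapping groups (−0.99, SE 0.50, adjusted p = 0.548). Lef1 was at 4.63, 4.43 and 26.6 CPM and then at 0.947, 1.39 and 8.11 CPM, so that replicate 3 alone made the groups overlap (−1.77, SE 0.84, adjusted p = 0.521).

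Cytochrome P450 genes of families 1 to 3 were lower in part. Among 31 tested, 7 were lower (22.6%) and 1 higher (3.23%) without overlap, beside 8.68% and 9.05% of all genes. The median was −0.38 in MM and −0.73 in HM-Wnt. The lowest log2 fold changes were those of Cyp2c37, at 4.46, 13.9 and 3.11 CPM at 1 week and 0.0768, 0 and 0.981 CPM at 2 weeks (−4.21, SE 1.06, edgeR adjusted p = 0.186), and Cyp2c50, at 90.2, 124 and 15.4 CPM and then 4.02, 0.917 and 10.9 CPM (−3.85, SE 1.09, adjusted p = 0.213). They were at −6.77 and −5.42 without replicate 3 at both times. Both are members of a cluster of close copies, among which reads may be split. Cyp3a11, the main drug-metabolising P450 of mouse liver, was at 1040, 1626 and 426 CPM and then at 519, 378 and 421 CPM (−1.23, SE 0.61, adjusted p = 0.541). In HM-Wnt, Cyp2c37, Cyp2c50 and Cyp3a11 were at −0.51, −1.50 and −1.28. In bile acid synthesis, the list median of 0.13 over 15 members was close to 0, but Cyp7a1, the rate-limiting enzyme, was at 17.5, 29.6 and 6.23 CPM and then at 3.68, 1.90 and 4.21 CPM (−2.43, SE 0.74, adjusted p = 0.252, and −3.05 without replicate 3 at both times). Akr1c6, a hydroxysteroid dehydrogenase of the same list, was at 368, 338 and 104 CPM and then at 84.0, 9.62 and 55.3 CPM (−2.44, SE 0.67, adjusted p = 0.204).

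Cell cycle genes were lower at 2 weeks in both media. In MM, 36 of 37 members had a log2 fold change below 0, and the median was −0.93. Of the 37, 10 were lower without overlap, beside 8.68% of all genes, and none was higher. By same-numbered pair the medians were −0.36, −0.91 and −0.10, so that the third pair moved least. The members were lower in all 3 pairs in 12 cases, against 19.6% of all genes. In HM-Wnt the median was −0.79 and 23 of the 37 were lower without overlap, beside 7.51% of all genes. Top2a, the topoisomerase of dividing cells, was at 2.62, 3.84 and 1.57 CPM at 1 week and at 0.563, 0.671 and 0.557 CPM at 2 weeks, where the 3 libraries were nearly alike (log2 fold change −2.07, SE 0.30, edgeR adjusted p = 0.076, with the block 0.052). Without replicate 3 at both times, a choice made after seeing the data, it was −2.29 and passed (edgeR adjusted p = 0.0387). Mcm6, a subunit of the replicative helicase, was at 23.1, 29.6 and 21.9 CPM and then at 12.1, 11.9 and 13.1 CPM (−1.0, SE 0.20, edgeR adjusted p = 0.133). Cdk1 and Cdc6, which drive mitosis and license replication, did not overlap at −1.13 and −2.04 (SE 0.30 and 0.43, adjusted p = 0.195 and 0.140). Mki67, the proliferation marker, was at 2.12, 2.58 and 0.0924 CPM and then at 1.33, 0.403 and 0.186 CPM, so that replicate 3 was already near 0 at 1 week (−1.26, SE 0.84, adjusted p = 0.703). Ccnb1, cyclin B1, was similar at −1.77 (SE 0.90, adjusted p = 0.556), and at −2.28 without replicate 3 at both times. Without replicate 3 at both times, 27 of the 37 were lower without overlap, beside 26.1% of all genes.

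Of 22 TGF-beta targets, 4 were lower and none higher without overlap (18.2% lower, beside 8.68% of all genes), with a median of −0.11. Of 21 p53 and senescence genes, 3 were lower (14.3%) and 2 higher (9.52%) without overlap, beside 8.68% and 9.05% of all genes. Their median was 0.00. Phlda3, a p53 target, was at 44.7, 33.2 and 120 CPM and then at 144, 154 and 207 CPM (1.35, SE 0.55, adjusted p = 0.418, and 1.93 without replicate 3 at both times). Fst, chosen after its values were seen, encodes follistatin, which binds activins. It was at 7.56, 6.65 and 8.84 CPM and then at 30.6, 35.8 and 27.2 CPM (2.01, SE 0.38, edgeR adjusted p = 0.133).

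Immediate early genes had a median of −0.45 over 27 members. Of these, 5 were lower (18.5%) and 1 higher (3.70%) without overlap, beside 8.68% and 9.05% of all genes. Egr1, a growth factor-induced transcription factor, was at 172, 173 and 228 CPM at 1 week and at 93.5, 123 and 81.6 CPM at 2 weeks (log2 fold change −0.94, SE 0.30, edgeR adjusted p = 0.281). Junb was at 246, 220 and 374 CPM and then at 203, 214 and 178 CPM (−0.50, SE 0.50, adjusted p = 0.848). The unfolded protein response went the other way. Of 23 members, 22 were above 0, and 6 were higher without overlap (26.1%, beside 9.05% of all genes). None was lower without overlap, and the median was 0.36, against −0.21 in HM-Wnt. By same-numbered pair the medians were 0.43, 0.45 and 0.02, so that the third pair hardly moved. Edem1, which helps clear misfolded glycoproteins, was at 40.3, 41.4 and 46.3 CPM and then at 81.3, 87.8 and 76.6 CPM (0.94, SE 0.31, edgeR adjusted p = 0.303). Derl3, of the same clearance route, was at 1.39 (SE 0.58, adjusted p = 0.426), whereas the chaperone Hspa5 and the transcription factor Xbp1 overlapped at 0.25 and 0.28 (SE 0.23 and 0.17, adjusted p = 0.827 and 0.667).

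Genes that define hepatocytes stayed abundant at both times. Alb was at 13283, 9430 and 9221 CPM at 1 week and at 8280, 3853 and 8552 CPM at 2 weeks, lower without overlap (log2 fold change −0.63, SE 0.35, edgeR adjusted p = 0.615). Hpx, hemopexin, was at 25633, 19309 and 6405 CPM and then at 37100, 27893 and 12141 CPM, with overlapping groups (0.59, SE 0.56, adjusted p = 0.838). Over the 10 hepatocyte markers of the study the median was −0.18, with 7 below 0 and 3 above. Their pair medians were −0.24, −0.49 and 0.35. Without replicate 3 at both times, 6 of the 10 were lower and 2 higher without overlap, beside 26.1% and 27.4% of all genes. The median over 25 plasma protein genes was 0.03. Hnf4a, the master regulator of hepatocyte identity, was at 170, 158 and 117 CPM and then at 213, 205 and 153 CPM (0.36, SE 0.21, adjusted p = 0.631).

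Over 20 hepatocyte transcription factors, 4 were higher and 2 lower without overlap, and the median was 0.20. Cebpa was at 20.3 to 23.1 CPM and then at 28.7 to 44.0 CPM (0.70, SE 0.19, edgeR adjusted p = 0.196). Foxa1 and Cebpb did not overlap at 0.96 and 1.36 (SE 0.28 and 0.61, adjusted p = 0.233 and 0.477). Nr1i3, the xenobiotic receptor CAR that drives Cyp2b and Cyp2c genes, was lower without overlap, at 8.87, 10.7 and 8.85 CPM and then at 4.86, 2.48 and 6.68 CPM (−1.01, SE 0.34, adjusted p = 0.313).

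None of the canalicular transporters named here passed the test. Abcc2 (MRP2) was at 219, 242 and 274 CPM and then at 179, 157 and 232 CPM, with overlapping groups (log2 fold change −0.37, SE 0.18, edgeR adjusted p = 0.530). Abcb11 (BSEP) and Abcb4 (MDR2) were at 0.05 and 0.10 (SE 0.67 and 0.20, adjusted p = 0.995 and 0.949). The SE of Abcb11 leaves room for a difference of more than 2-fold in each direction at 95%, so that its level was not shown to be equal at both times.

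Periportal genes had a median of 0.44 over 19 members, with 2 higher and 1 lower without overlap, close to the share of all genes. Pck1, the entry enzyme of gluconeogenesis, was at 0.904, 1.07 and 0.129 CPM at 1 week and at 3.43, 5.97 and 2.65 CPM at 2 weeks (log2 fold change 2.45, SE 0.79, edgeR adjusted p = 0.290, with the block 0.076). Fbp1, the next regulated enzyme, was at 1213, 806 and 881 CPM and then at 1514, 1634 and 1126 CPM (0.56, SE 0.27, adjusted p = 0.533). Pigr, the receptor that carries IgA, and the protease gene Ctsc were higher in every pair but overlapped between groups at 1.95 and 1.31 (SE 0.86 and 0.48, adjusted p = 0.464 and 0.355). Arg1, the last enzyme of the urea cycle, was at 70.8, 166 and 2.48 CPM and then at 190, 144 and 20.1 CPM, which spread widely within each time (0.57, SE 1.24, adjusted p = 0.959). Gls2 was under 1 CPM in each library (0.21, SE 0.43, adjusted p = 0.954). Sox9 and Krt19, markers of bile duct cells, had log2 fold changes of −0.01 and −0.29 (SE 0.22 and 1.00, adjusted p = 0.997 and 0.973; Krt19 at −2.37 without replicate 3 at both times) and no change was detectable. Amino acid catabolism had a median of 0.38 over 28 members. Of these, 4 were higher (14.3%) and 1 lower (3.57%) without overlap, beside 9.05% and 8.68% of all genes. Mat1a, which makes S-adenosylmethionine, was at 1785, 1046 and 765 CPM and then at 2566, 2343 and 1452 CPM (0.82, SE 0.45, adjusted p = 0.603).

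Whether the change with time differed between the media was tested by the difference between the change in MM and that in HM-Wnt, in the same fit. No gene passed by edgeR (0 of 12989), where 951 (7.32%) had an unadjusted p under 0.05, and DESeq2 called 46 of 12699 (0.362%). Acot2 was at 1.23, 1.39 and 1.25 CPM at 1 week and 1.25, 1.27 and 1.57 CPM at 2 weeks in HM-Wnt, with a log2 fold change of 0.07. The change in MM exceeded it by 1.73 on the log2 scale (95% interval 1.02 to 2.44, edgeR adjusted p = 0.39). Aspg was at 5.09, 4.22 and 5.64 CPM and then at 7.47, 10.1 and 8.45 CPM in HM-Wnt, higher without overlap there too, and the changes differed by 0.86 (95% interval 0.26 to 1.46, adjusted p = 0.67). Vnn1 had a log2 fold change of −0.57 in HM-Wnt and a difference between media of 1.65 (95% interval 0.99 to 2.32, adjusted p = 0.39). Lgr5 was at −0.37 in HM-Wnt, with a difference of −3.28 (95% interval −4.85 to −1.71, adjusted p = 0.39). These intervals exclude 0 gene by gene but are not adjusted for the number of genes. The genes were picked by their change in MM, which is part of this difference, so the choice itself favours intervals clear of 0.

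**Figure D4:**
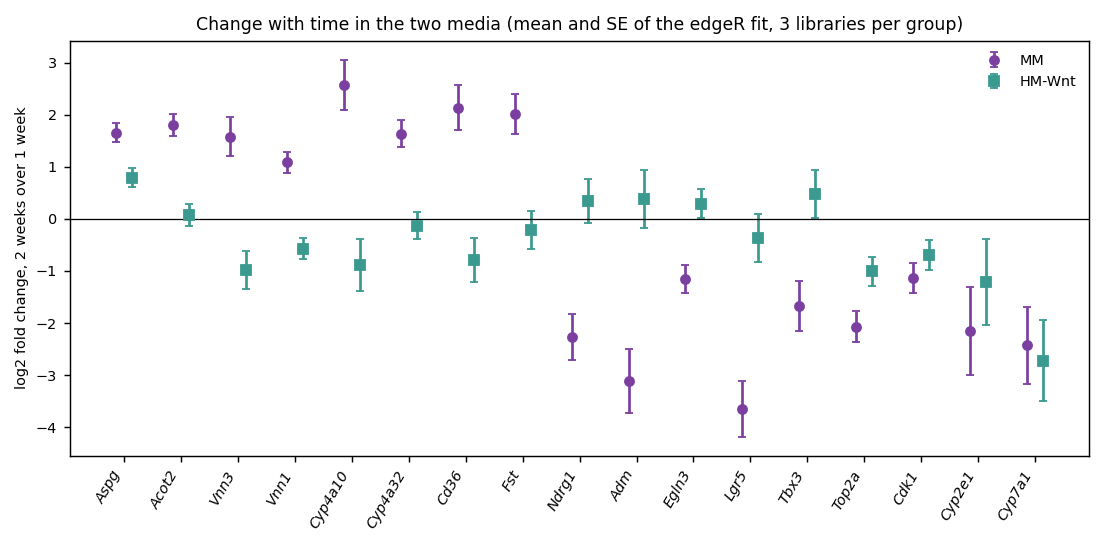
Points are log2 fold changes, 2 weeks over 1 week, in MM (circles) and HM-Wnt (squares) for 17 genes, with the SE of the edgeR fit as bars (3 libraries per group). Cyp4a10 (2.57 and −0.88) and Cd36 (2.14 and −0.79) lie above 0 in MM and below it in HM-Wnt. Acot2 (1.80 and 0.07) and Aspg (1.65 and 0.79) lie above 0 in both, and Cdk1 (−1.13 and −0.70) and Cyp7a1 (−2.43 and −2.72) below 0 in both.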

How the data were processed

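Bulk RNA-seq of mouse HepOrgs was analysed from a gene table of 37 libraries, of which 27 were matched to sample titles and 10 were not used. The authors prepared SMARTseq2 libraries without strand information, aligned reads to GRCm39 (Ensembl release 109) with STAR 2.7.11b, and assigned them to genes with featureCounts 2.0.6. They deposited whole-number counts, a gene length and TPM values. The length matches the whole gene span (median ratio 1.00) and not the exons (3.76), so the deposited TPM are per span and were used only in alternatives within a gene.

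The 12 HepOrg libraries entered 1 fit with a mean per group (R 4.3.3, edgeR 4.0.16, TMM, filterByExpr at 10 counts and a total of 15, prior count 2, quasi-likelihood test, Benjamini-Hochberg adjustment over 12989 genes, threshold 0.05). The contrasts were MM 2 weeks minus 1 week and its difference from the same contrast in HM-Wnt. Intervals are 95%. With 3 libraries against 3, an exact permutation test of 1 gene cannot go below p = 0.1 and was not used. The alternatives were DESeq2 1.42.0, limma 3.58.1 on log2(TPM + 1) or log2(TPM + 0.1), other scalings and filters, other sets of libraries, and a replicate block. Leaving out replicate 3 of MM at both times was chosen after seeing the data. Pairing was checked by correlating deviations from group means across genes. All 18 same-numbered pairs across the HepOrg groups had r above 0.1 (0.127 to 0.503), in MM 0.136 to 0.350, so the numbers were taken to pair the libraries, which the labels do not state. Scripts were tested on simulated data.

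The members and the 43 gene lists were chosen with earlier results of these data known. Named were genes past the threshold whose average log2 CPM reached 3 and whose groups did not overlap (Aspg), then genes past it with the block (Vnn3), genes the study names for HepOrgs, and members of each list that passed or, where none did, its 2 most abundant. Other genes, Acot2 among them, were chosen after their values were seen. Positions are from GENCODE M39. The results of some genes are not reported here, though these genes stay in the fits and in the counts and medians of the lists.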

Additional observations from a re-analysis of the deposited data

How the results depend on the processing

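The count of 2 genes, Aspg and Acot2, depended on the tool and the libraries. It stayed at 2 with RLE size factors, a minimum of 10 counts in every library, and an added requirement of a log2 fold change of 1 either way. It was 308 with DESeq2 (178 higher, 130 lower), 5 with no filter on low counts (3 added as lower, among them Lgr5 and Top2a), 4 on log2(TPM + 1) (Cd36 and Cyp4a32 added), 1 on log2(TPM + 0.1) (Acot2), 15 with only the 6 MM libraries and 0 with all 27 libraries. With the replicate block it was 3, and 223 with only the 6 MM libraries (165 higher, 58 lower), 624 with DESeq2 and 8 on log2(TPM + 1). Leaving out 1 replicate number under the block gave 0 to 1. Leaving out 1 MM library without the block gave 0 to 11: 2 without replicate 1, 0 without replicate 2 and 11 without replicate 3 of 1 week, and 0, 1 and 1 without replicates 1, 2 and 3 of 2 weeks. Aspg lost its call without replicate 1 or 2 of either time, and Acot2 without replicate 2 of 1 week or any replicate of 2 weeks. Without replicate 3 at both times the count was 5 (Aspg, Cyp4a10, Lgr5, Top2a and Avpr1a), and Acot2 had an adjusted p of 0.097. The log2 fold change of Aspg ranged from 1.29 to 1.82 and that of Acot2 from 1.49 to 2.03. For the difference between media the count was 0, except 46 with DESeq2, 369 with DESeq2 and the block, and 2 with the block without replicate 2 (Tat and Ly6m), so 0 to 2 over the fits that left out replicates. The causes were not tested.

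The list medians kept their sign over all 22 alternatives for fatty acid oxidation (0.26 to 0.59), glycolysis and hypoxia (−0.65 to −0.28), pericentral genes (−1.34 to −0.72), cell cycle (−1.17 to −0.29), Wnt targets (−0.75 to −0.18) and the unfolded protein response (0.21 to 0.47). Among genes named with a fold change, 7 changed sign under some alternative. Leaving out 1 library gave −0.30 to 1.36 for Pdk4, −0.25 to 0.32 for Abcb11, −0.038 to 0.29 for Abcb4, −0.0025 to 1.67 for Arg1, −0.065 to 0.449 for Gls2, −0.22 to 0.19 for Sox9 and −2.39 to 0.204 for Krt19. With the replicate block and 1 number left out, Pdk4 was at −0.14, Abcb11 at −4.9e-05 and Sox9 at 0.12 without number 3, Gls2 at −0.017 without number 1 and Krt19 at 0.34 without number 2. Without replicate 3 at both times, Pdk4 was at −0.035 and Sox9 at 0.13. On log2(TPM + 1), with and without the block, Abcb11 was at −0.035 and Abcb4 at −0.0073, and on log2(TPM + 0.1) they were at −0.041 and −0.0072. Genes near or under 1 CPM rest on few counts, and small differences in them were not detectable.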

Other observations

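The 13 mitochondrially encoded genes, which encode subunits of the respiratory chain and ATP synthase, all had a log2 fold change above 0 in MM and all below 0 in HM-Wnt, with medians of 0.25 and −0.95. In MM none of the 13 was without overlap between 1 and 2 weeks, whereas in HM-Wnt 10 were lower without overlap, beside 7.51% of all genes. By same-numbered pair the MM medians were −0.25, 0.37 and 0.76, so that 1 of the 3 pairs went the other way, and over the alternatives the MM median ranged from −0.02 to 0.57. The difference between media had an unadjusted p under 0.05 for 11 of the 13 and passed for none after adjustment in edgeR (0 of 12989, with DESeq2 46 of 12699 genes in all).

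ATF4 targets are genes of amino acid supply that rise in the integrated stress response. In MM, 4 of 34 members were higher without overlap (11.8%, near the 9.05% of all genes). None was lower without overlap, and the median was 0.16. Their pair medians were 0.20, 0.71 and −0.11. Acute phase proteins had a median of 0.23 over 26 members, against −0.63 in HM-Wnt. Of these, 2 were higher (7.69%) and 1 lower (3.85%) without overlap, beside 9.05% and 8.68% of all genes. Collagens and other matrix genes had a median of −0.60 over 31 members, and pair medians of −0.56, −0.20 and 0.28. Of the 31, 2 were higher and 2 lower without overlap (6.45% each), below the shares of all genes. Cholesterol synthesis genes were close together, with 22 members between −0.45 and 0.13 and a median of −0.15. Junction and polarity genes had a median of −0.01 over 34 members. Of these, 3 were higher (8.82%) and 1 lower (2.94%) without overlap, beside 9.05% and 8.68% of all genes.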
